A study of Rattus norvegicus with 8 samples.

Results

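Neuroendocrine marker genes were examined in lung tumor tissues, in matched normal lung tissues and in blood of rats. The set held 9 genes chosen by name, namely Chga, Chgb, Syp, Calca, Uchl1, Eno2, Ncam1, Insm1 and Grp. A probe was taken as a member's where the RefSeq transcript given for it on the array belongs to that gene. By this rule 8 of the 9 genes had a probe, of 13903 named genes with a probe in all, and no probe was named for Insm1. Calca had 3 probes and each other gene 1, which gives 10 probes, all printed in 1 spot. In lung, 7 of the 8 genes passed the filter, which asked that 3 or more of the 6 arrays show a signal well above background, and Grp did not.

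The 8 samples were hybridised to 1-colour Agilent arrays of the Arraystar rat lncRNA design, which also carries probes for mRNAs. All were from male F344 rats at week 95. NNK is a carcinogenic nitrosamine of tobacco smoke. The 3 lung tumor tissues and the 3 matched normal lung tissues all came from the NNK treatment group, so the normal lung was exposed to NNK too. The other 2 samples were clots of whole blood, 1 from the control group and 1 from the NNK treatment group. For the latter the sample description speaks of a tumor, although its title speaks of a clot and other label fields speak of blood, as which it was used. The labels do not say how many animals gave the lung tissues, so p-values measure the spread between these samples, which may be technical.

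Pulmonary neuroendocrine cells are rare airway epithelial cells that sense the inhaled air and lie close to nerve endings. They store peptides and amines in dense-core granules together with granins, and they carry small vesicles like those of synapses. The same proteins mark neuroendocrine tumors of the lung, among them small cell carcinoma, and several of them are also made by neurons. Chromogranin A (Chga) and chromogranin B (Chgb) are granule matrix proteins, and synaptophysin (Syp) spans the vesicle membrane. Calca encodes calcitonin and calcitonin gene-related peptide, and Grp encodes gastrin-releasing peptide. Uchl1 is a deubiquitinating enzyme abundant in neurons, and Eno2 is the neuronal enolase of glycolysis. Ncam1 is a cell adhesion molecule that human natural killer cells can also carry, and Insm1 is a zinc-finger transcription factor of neuroendocrine differentiation.

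The promoters of the member that rose in tumor and of 2 members that fell are given so that the regions can be compared with the values that follow. RefSeq promoters of the assembly GRCr8, which reach from 250 bases before to 50 bases after the start of the gene, were given for 6 of the 9 genes. Capitals mark matches on either strand to 3 motifs. The GC box, at which zinc-finger factors of the Sp family bind, was searched as GGGCGG. The core promoter element known as the TATA box was searched as TATAAA. The E-box, which basic helix-loop-helix factors recognise, was searched as CAGCTG.
Uchl1 promoter, chr14:41849368-41849667, strand minus: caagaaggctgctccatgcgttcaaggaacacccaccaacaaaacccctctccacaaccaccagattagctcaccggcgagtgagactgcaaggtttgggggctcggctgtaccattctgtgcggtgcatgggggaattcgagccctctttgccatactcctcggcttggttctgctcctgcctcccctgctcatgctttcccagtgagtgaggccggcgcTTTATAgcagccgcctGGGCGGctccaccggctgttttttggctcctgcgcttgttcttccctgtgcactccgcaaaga
Syp promoter, chrX:17536400-17536699, strand minus: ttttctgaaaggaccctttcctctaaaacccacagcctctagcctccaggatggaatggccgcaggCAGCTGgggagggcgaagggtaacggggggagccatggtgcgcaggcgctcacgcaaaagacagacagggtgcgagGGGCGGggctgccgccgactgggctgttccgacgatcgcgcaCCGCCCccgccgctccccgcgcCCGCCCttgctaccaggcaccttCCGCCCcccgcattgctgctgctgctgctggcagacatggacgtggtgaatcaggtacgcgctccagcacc
Chgb promoter, chr3:140496462-140496761, strand plus: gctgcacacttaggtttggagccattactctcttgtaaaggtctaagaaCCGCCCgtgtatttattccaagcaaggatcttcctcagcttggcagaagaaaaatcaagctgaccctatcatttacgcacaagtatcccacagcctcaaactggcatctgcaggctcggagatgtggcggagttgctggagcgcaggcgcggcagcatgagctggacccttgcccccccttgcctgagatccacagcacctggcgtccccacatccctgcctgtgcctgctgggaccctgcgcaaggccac

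The Uchl1 window held 1 GC box and 1 TATA box, the latter read on the opposite strand. The Syp window held 4 GC boxes and 1 E-box, and the Chgb window held 1 GC box. Of all 33469 promoters of this length, 33.1% held a GC box, 14.2% a TATA box and 15.1% an E-box. The cyclic AMP response element (TGACGTCA), found in 1.83% of all promoters, was in none of the 6. The letters GGACAG, the right part of the element bound by the neuronal repressor Rest, were in 21.7% of all promoters and, among the 6, in that of Grp. GC content was 58.7% for Uchl1, 67.0% for Syp, 56.7% for Chgb, 58.0% for Calca, 70.7% for Eno2 and 59.0% for Grp, against a median of 51.7% over all promoters. The Eno2 window held 31 CG dinucleotides and the Syp window 25, against a median of 7.

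Several arrays were close to copies of each other. The mean squared difference between arrays was 0.457 to 0.783 times that expected from spot noise among the 3 normal lung arrays, and 0.46 times between lung tumor 2 and lung tumor 3. It was 2.85 to 3.18 times between lung tumor 1 and the other tumors and 8.3 to 12.7 times between normal lung and tumor. Pairs under 1 differ by less than the noise of spots, and each such set entered the mean ± SD once, so that n is 1 for normal lung and 2 for lung tumor. The labels name no slide, so arrays with the same scan identifier in their headers were taken to share one. By this rule the normal lung arrays and lung tumor 1 shared a slide, and lung tumor 2 and 3 were on another. A fit with the slide as a block therefore takes its difference from lung tumor 1 alone against the normal lung arrays. Median processed signals were 25.0 to 35.6 in lung, and the share of spots above background with an outlier mark was 4.92 to 8.62% in normal lung and 15.9 to 25.3% in tumor.

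Values below are log2 processed signals after quantile normalization over the 6 lung arrays, and differences are lung tumor minus normal lung with the standard error (SE) of the limma fit. Calls needed a 2-fold change or more together with a Benjamini-Hochberg adjusted p no higher than 0.05 over the 12471 probes tested. Of the 7 marker genes tested, 1 was up-regulated in lung tumor, Uchl1, and 3 were down-regulated, Chgb, Syp and Ncam1. Across all probes tested 13.5% were called higher and 15.5% lower. The median difference was -1.02 over the 7 genes and 0.07 over all probes. With near-identical arrays counted once, 1 normal lung was set against 2 tumors, its spread was assumed to be that of the tumors, and 14.2% of 12327 probes were called. In that fit 1 marker gene, Uchl1, was called.

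**Figure D1:**
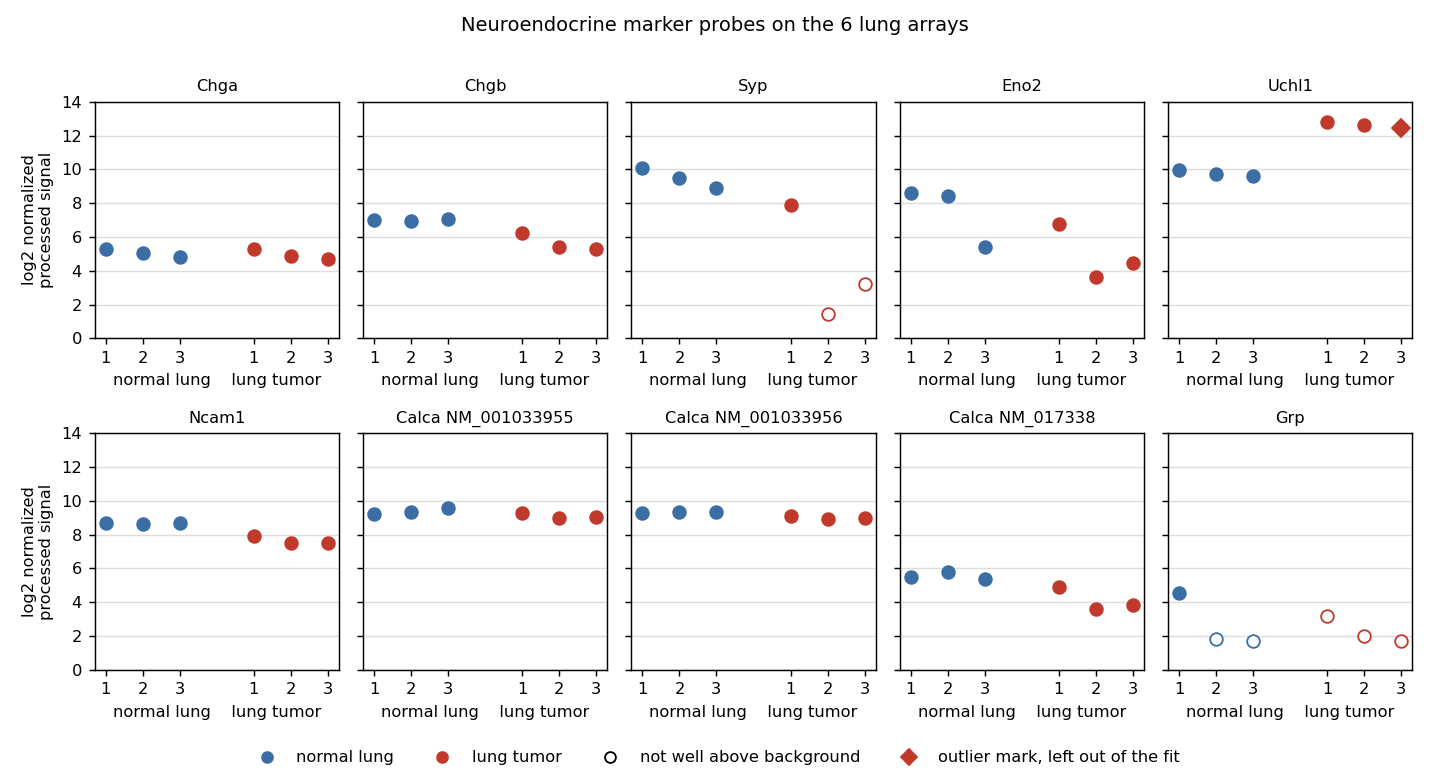
Log2 normalized processed signal (vertical axis) of the 10 marker probes on the 3 normal lung arrays (blue) and the 3 lung tumor arrays (red). Open points were not well above background, and the diamond is the Uchl1 spot of lung tumor 3 with an outlier mark. Uchl1 lies between 9.59 and 9.94 in normal lung and between 12.46 and 12.80 in tumor, while Syp and Eno2 spread over several units.

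The granins differed in their values. Chgb read 6.98, 6.94 and 7.04 in normal lung 1, 2 and 3, and 6.23, 5.39 and 5.27 in lung tumor 1, 2 and 3. Among the tumors, lung tumor 1 was nearest to normal. Chgb fell by 1.36 on the log2 scale (SE 0.266, limma adjusted p = 0.00675), which is 2.56-fold lower. With near-identical arrays counted once, its tumor level was 5.78 ± 0.64 (SD, n = 2) against 6.99 in the normal sample, and the difference of -1.21 was not called (adjusted p = 0.197). Within the slide that held both tissues the difference was -0.76, under the 2-fold threshold.

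Chga read 5.28, 5.05 and 4.83 in normal lung and 5.27, 4.85 and 4.70 in tumor. The groups overlapped on a dim probe whose raw processed signals were 25.0 to 36.8. Its difference was -0.12 (SE 0.191, limma adjusted p = 0.615), and its sign turned to 0.12 under a 75th percentile shift and to 0.21 with the slide as a block.

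The vesicle protein gene Syp read 10.08, 9.48 and 8.91 in normal lung, then 7.90, 1.44 and 3.24 in tumor. The signal was well above background in every normal lung and, among the tumors, on lung tumor 1 alone, so the other tumor values have no order. The fit gave -5.30 (SE 1.69, limma adjusted p = 0.0375) from tumors that spread over more than 6 log2 units. The difference was -1.59 with the slide as a block and -4.37 with near-identical arrays counted once, and neither was called. Leaving out any 1 normal lung, or lung tumor 2 or 3, also ended the call. Over 17 alternatives the value ran from -7.15 to -1.59 and the call was lost in 10.

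Eno2 read 8.62, 8.40 and 5.42 in normal lung and 6.74, 3.61 and 4.43 in tumor. Normal lung 3 lay below lung tumor 1, so the groups overlapped, and every value was well above background. The difference of -2.55 (SE 1.21, limma adjusted p = 0.114) was not called. Without normal lung 3 it was -3.59 (adjusted p = 0.0374) and called lower, and with the slide as a block it was -0.74 and not called.

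Uchl1 was the marker gene with signal that rose. Its processed signals before normalization were 952, 895 and 713 in normal lung and 7010, 5920 and 5300 in tumor. On the normalized log2 scale these were 9.94, 9.75 and 9.59 against 12.80, 12.61 and 12.46. The spot of lung tumor 3 carried an outlier mark, so the fit used lung tumor 1 and 2 and gave a difference of 2.95 (SE 0.135, limma adjusted p = 9.63e-05), 7.71-fold higher. With that spot kept it was 2.86 (adjusted p = 2.06e-05). Within the shared slide it was 3.04, and with near-identical arrays counted once the tumor level was 12.71 ± 0.14 (SD, n = 2) against 9.76 in the normal sample. The adjusted p of 0.0347 for that comparison takes its spread from the tumors alone. Over 16 alternatives the difference ran from 2.62 to 3.04 and was called in each. No fit was possible without lung tumor 1 or without lung tumor 2, since 1 unmarked tumor spot was left.

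Ncam1 read 8.68, 8.65 and 8.70 in normal lung and 7.94, 7.48 and 7.53 in tumor. It fell by 1.02 (SE 0.135, limma adjusted p = 0.00145), a 2.03-fold change that lies at the threshold. The fall was smaller than 2-fold on other normalizations, -0.86 with a 75th percentile shift, -0.89 with quantile normalization over all 8 arrays and -0.82 in the authors' normalized values. It was -0.73 with the slide as a block and -0.95 (adjusted p = 0.134) with near-identical arrays counted once.

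The 3 Calca probes did not give 1 answer. The probe for NM_001033955.1, the brightest over the lung arrays and taken for the gene, read 9.22, 9.37 and 9.55 in normal lung and 9.29, 9.01 and 9.03 in tumor. The groups overlapped and the difference was -0.27 (SE 0.121, limma adjusted p = 0.101). The probe for NM_001033956.1 read 9.31, 9.32 and 9.35 against 9.13, 8.91 and 8.98, a difference of -0.32 (SE 0.0724, adjusted p = 0.0121) that was under 2-fold. The probe for NM_017338.2, which was dim, read 5.49, 5.77 and 5.38 against 4.88, 3.60 and 3.84 and was called lower at -1.44 (SE 0.356, adjusted p = 0.0157). That call was lost in 6 of 18 alternatives, with -0.67 for the slide as a block and -0.42 after normexp background correction.

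Grp was near the floor of the array. Its probe was well above background on normal lung 1 alone, with a log2 signal of 4.54, and read 1.83 and 1.72 on the other normal lungs and 3.16, 1.99 and 1.69 on the tumors. The groups overlapped, and Grp was not tested.

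**Figure D2:**
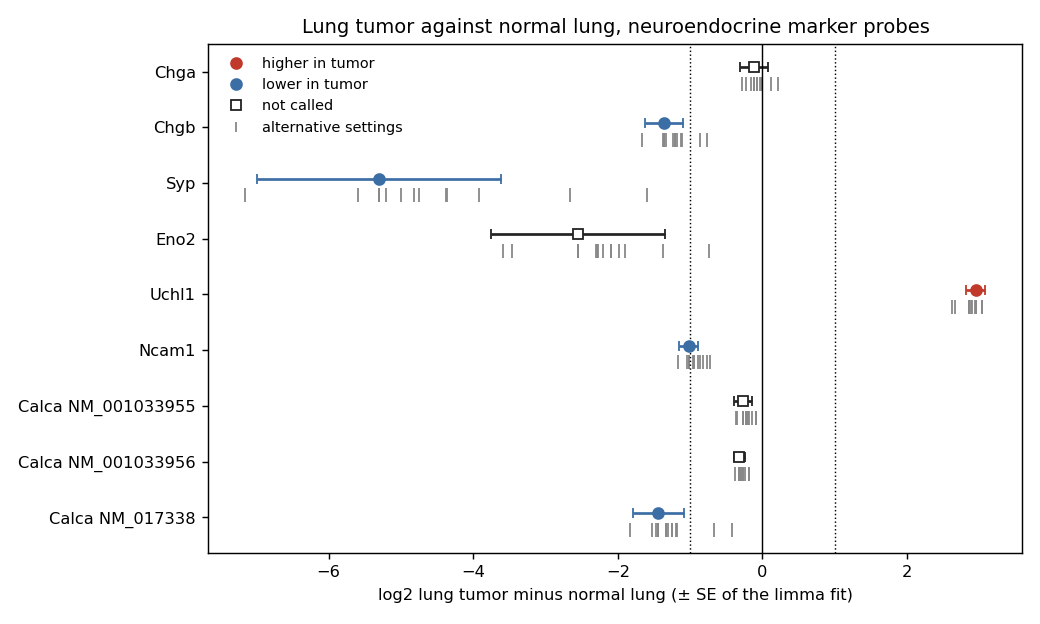
Difference in log2 signal, lung tumor minus normal lung (horizontal axis, ± SE of the limma fit), for the 9 marker probes tested. Grey ticks are the values under alternative settings, and dotted lines mark a fold change of 2. Uchl1 stays between 2.62 and 3.04, and the ticks of Syp and Eno2 spread most, from -7.15 to -1.59 and from -3.59 to -0.74.

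Expression patterns most like each member were sought among the named mRNA probes, by Euclidean distance over the 6 lung arrays after each probe was centred on its mean. Uchl1 was nearest to Aspg (distance 0.0628), Golt1a (0.193) and Rbfox1 (0.216). Chgb was nearest to Dnaaf4 (0.135), Irs3 (0.137) and Spetex2g (0.171). Ncam1 was nearest to Cstpp1 (0.103), Il16 (0.114) and Gask1b (0.115), and Chga to Isoc2b (0.0742), Uts2 (0.0995) and Ogdh (0.101). The nearest genes of the Calca probes were Cd72 (0.13) for NM_001033955.1, Dynll2 (0.0424) for NM_001033956.1 and Plppr4 (0.366) for NM_017338.2. For Eno2 the nearest was Aldoc, another glycolytic enzyme gene of the nervous system, but at a distance of 1.33, followed by Bmerb1 (1.54) and Gsg1 (1.64).

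The other genes of the neuroendocrine programme were taken from 7 lists, which held 76 genes beside the members. Of these 72 had a probe, 55 passed the filter and 46 were tested. In tumor 4 rose and 18 fell, against 13.5% higher and 15.5% lower over all probes, with a median difference of -0.70, and 12 were undetected in lung, that is, well above background on none of the 6 arrays. The lists were chosen with earlier results of these data known, so these counts describe the listed genes and do not test the programme. With near-identical arrays counted once, 10 of the 46 were called, 2 higher and 8 lower, beside 6.31% higher and 7.92% lower over all probes in that fit.

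Among 12 tested genes of granule cargo and processing, 1 rose and 4 fell, with a median of -0.37. The fallen genes were Scg5 (-3.02), a chaperone of the prohormone convertase Pcsk2, the granin Scg3 (-2.94), the amidating enzyme Pam (-1.75) and carboxypeptidase E (Cpe, -1.21). Slc18a1, a vesicular monoamine transporter, rose by 1.05, and Pcsk2 was undetected in lung. Scg5 read 11.65, 11.59 and 11.50 in normal lung and 10.20, 7.74 and 7.74 in tumor, and Scg3 read 10.44, 9.43 and 8.10 against 6.90, 6.09 and 6.16. For Scg5 lung tumor 1 lay between the normal lungs and the other tumors.

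Of 7 tested genes of synaptic-like vesicles and fusion none rose and 2 fell, with a median of -0.06. The synapsin gene Syn1 was at least 4.57-fold lower (limma adjusted p = 0.0017) on a dim probe that no tumor array measured above background, and its other probe gave -1.89 (adjusted p = 0.0588). Sv2b, a vesicle glycoprotein gene, fell by 1.70. Syt1 and Rab3c were undetected in lung.

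Of 6 tested transcription factors and Notch regulators, 2 fell, Myt1 (-3.84) and Gfi1 (-1.71), and none rose, with a median of -1.20. Myt1 read 8.48, 8.35 and 5.48 in normal lung and 5.21, 2.77 and 2.80 in tumor, where 1 of 3 arrays measured it well above background, so the size of its fall is uncertain. Dlk1, a Notch regulator that was named after its values were seen, could not be tested because of outlier marks and gave -5.59 with those spots kept (limma adjusted p = 1.52e-06). Neurod1 read 8.33, 6.72 and 6.11 in normal lung against 6.37, 1.53 and 1.45 in tumor, a difference of -3.93 that was not called (limma adjusted p = 0.0668) and rests on 1 of 3 tumor arrays with signal well above background. Pou3f2, Prox1, St18 and Rest were undetected in lung.

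The peptide genes went both ways, 2 up and 4 down of 10 tested, with a median of 0.05. Tac1, the substance P precursor, read 11.27, 11.37 and 11.42 in normal lung and 13.19, 13.22 and 13.00 in tumor, and its 4 probes rose by 1.66 to 1.85. Pomc, the precursor of corticotropin, rose by 1.04. Galanin (Gal, -4.61), neuropeptide Y (Npy, -2.30), vasoactive intestinal peptide (Vip, -2.12) and neuromedin B (Nmb, -1.30) fell. Gal read 8.77, 8.80 and 8.88 in normal lung against 4.55, 4.18 and 3.89 in tumor, and Sst and Adcyap1 were undetected in lung.

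Of 6 tested peptide receptor genes, 1 rose and 4 fell, with a median of -1.87. Calcr and Calcrl encode receptors for the Calca peptides, and the Ramp genes encode proteins that pair with such receptors. Calcr fell by 2.35 and Calcrl by 1.40. Of the Ramp genes, Ramp2 fell by 2.64 and Ramp3 rose by 1.50. Ramp1, which forms the receptor of calcitonin gene-related peptide with Calcrl, gave 0.32 and was not called. Calcrl was dim, with 2 of 3 tumor arrays well above background. Ramp3 read 12.36, 12.30 and 12.32 in normal lung and 13.77, 13.87 and 13.86 in tumor, and Ramp2 read 8.72, 8.75 and 8.65 against 6.57, 6.12 and 5.51. The neuromedin B receptor gene Nmbr was at least 4.41-fold lower, and Grpr, the receptor for the Grp peptide, was undetected in lung, as was Brs3.

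Of 4 tested genes of amine synthesis and uptake, 2 fell and none rose, with a median of -1.12. The serotonin transporter gene Slc6a4 fell by 2.53, from 14.04, 13.94 and 14.02 in normal lung to 11.76, 11.31 and 11.34 in tumor, and Tph1, the first enzyme of serotonin synthesis, fell by 1.28. Slc6a4 is also known from platelets and lung endothelium. All 3 tested platelet markers fell, with Gp1bb at -1.91, Ppbp at least 4.48-fold lower and Gp9 at least 3.42-fold lower, while Pf4, lost to outlier marks, gave 0.98 with those spots kept and the list summed to 4930 to 5270 in normal lung and 7750 to 9070 in tumor. The endothelial marker Tek fell by 2.74, Pecam1 gave -1.88 with outlier spots kept, Cdh5 was undetected in lung, and the list summed to 160000 to 168000 against 24700 to 25200. Of 5 tested erythroid markers 4 fell, among them Ahsp (-3.99) and Alas2 (-3.09), with sums of 220000 to 228000 against 131000 to 139000. The part of these cells in the amine genes was not tested. Among the close relatives of the markers 1 of 5 genes that passed the filter could be tested, the enolase Eno1 (0.02). The other Eno1 probe gave 0.59 (SE 0.057, limma adjusted p = 0.000434), under 2-fold. With outlier spots kept, Uchl3 gave 0.53, Eno3 -0.24 and Sypl1 0.04, and none of the 5 was called.

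**Figure D3:**
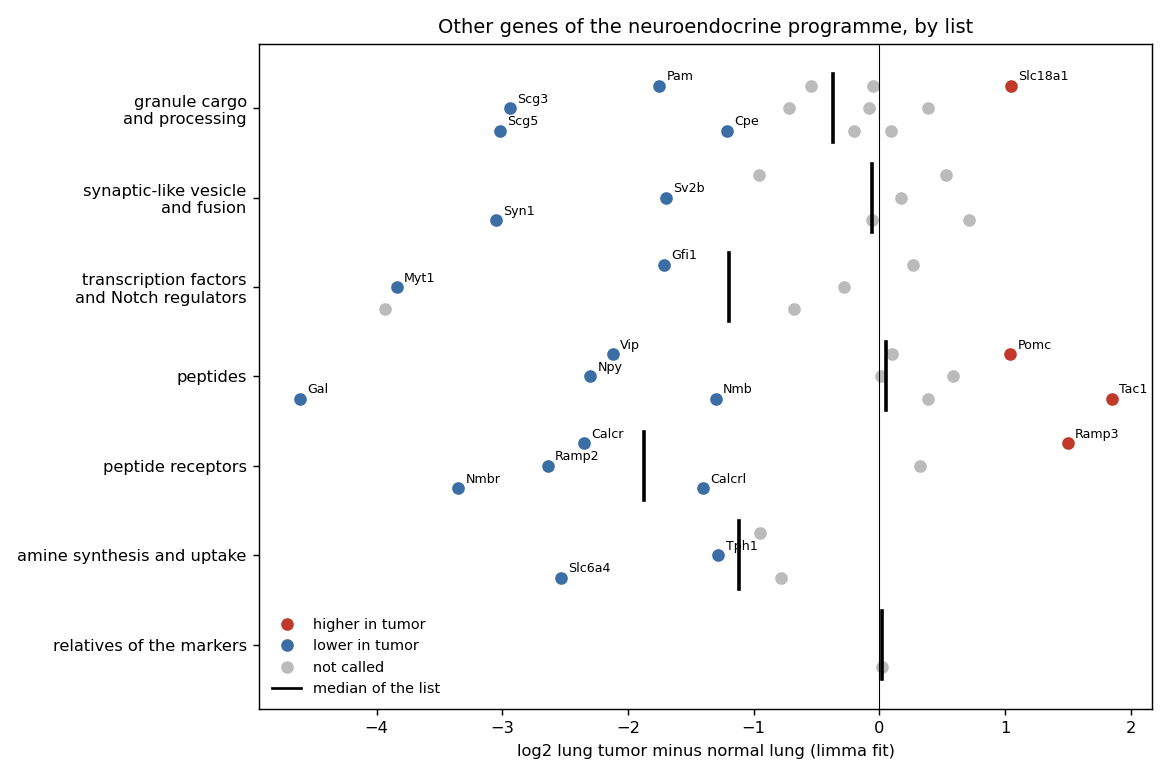
Difference in log2 signal, lung tumor minus normal lung (horizontal axis), of the other genes of the neuroendocrine programme, 1 row for each list and 1 point for each gene tested. Black lines are the list medians. Most called genes lie left of 0, among them Gal at -4.61, and Tac1 lies at 1.85. Myt1, Neurod1, Syn1 and Nmbr were measured well above background on at most 1 tumor array, so their places are uncertain.

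Markers of other cells in lung were read from the same fit, and in bulk tissue fewer cells of a type and less RNA per cell cannot be told apart. Of 8 tested neuron markers 3 fell, Prph (-4.98), Stmn2 (-1.90) and Nefm (-1.08), and Nefl rose by 1.18. Elavl3 (-1.73), Dbh (0.54), Nefh (0.23) and Tubb3 (0.09) were not called. Elavl3 was well above background on 1 of 3 tumor arrays, and Dbh on no normal lung array. The summed neuron marker level was 6420 to 7220 in normal lung and 3530 to 4510 in tumor. Without Prph it was 3510 to 4350 and 3440 to 4400, but Nefh (mean log2 signals 11.31 and 11.55) weighs most in that sum. Elavl4 was undetected in lung. The 3 tested Schwann cell markers were not called, and their list summed to 2560 to 2890 in normal lung and 1700 to 1910 in tumor. For natural killer cells all 3 tested markers fell, Klrd1 (-2.44), Prf1 (-2.25) and Nkg7 (-2.21), from a summed level of 83700 to 90100 down to 16200 to 18200. Ncr1 was not well above background on any lung array. The fall was not confined to this list, since 1 of 3 tested T cell markers also fell. The T cell list summed to 15800 to 16400 in normal lung and 8140 to 8990 in tumor. All 3 tested type 1 alveolar markers also fell, the list summing to 934000 to 947000 in normal lung and 272000 to 283000 in tumor. The part of these cells in the values of the members was not tested. Among the type 2 alveolar markers none of 5 tested was called, with Napsa at 0.99, but Sftpc was called higher at 1.14 with outlier spots kept, and the proliferation marker Cdk1 rose by 2.52.

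In blood there was 1 array for each group and no test. After quantile normalization within the 2 blood arrays, 42.2% of 14452 probes differed by more than 2-fold as measured, dim signals included. Uchl1 was the one member well above background on both, with log2 signals of 5.60 in control blood and 5.23 in NNK blood, a difference of -0.37 that ran from -0.71 to -0.12 over the other settings. Eno2 was well above background in control blood alone and was at least 1.29-fold lower in NNK blood, with 4.60 against 3.37. Calca was well above background in NNK blood alone, on 1 of its 3 probes, and was at least 1.28-fold higher there, with 4.65 against 1.95. Chga, Chgb, Syp, Ncam1 and Grp were not well above background on either array.

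On values normalized over all 8 arrays, Uchl1 read 8.89 to 9.19 in normal lung, 11.47 to 11.80 in tumor, 6.75 in control blood and 6.14 in NNK blood. Normalizing lung and blood together assumes that both share 1 distribution of signals, while the 75th percentile of the processed signal was 1191 to 1329 in lung and 95.4 and 205.8 in blood.

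**Figure D4:**
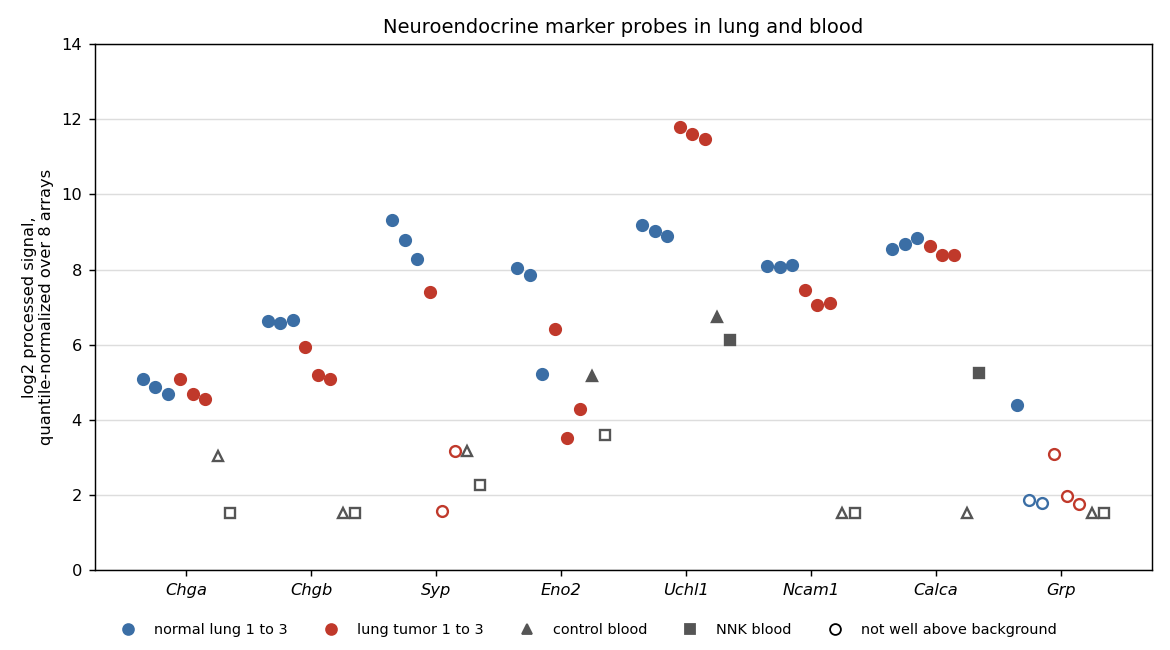
Log2 processed signal after quantile normalization over all 8 arrays (vertical axis) for 1 probe of each marker gene, with normal lung in blue, lung tumor in red and blood in grey. Open symbols were not well above background. In blood only Uchl1 (both arrays), Eno2 (control) and Calca (NNK) have filled symbols, and Uchl1 is lower there than on any lung array.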

How the data were processed

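Total RNA was labelled with Cy3 and hybridised to 8 arrays, and per the labels the images were read by Agilent Feature Extraction 10.5.1.1. The authors deposited intensities per spot, of which the processed signal, background-subtracted by that software, was used, and log2 values that they had quantile-normalized over all 8 arrays. Probe sequences were not used here.

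In R 4.3.3, control spots were set aside and the log2 processed signals of the other 42136 spots were quantile-normalized, lung (6 arrays) and blood (2 arrays) apart from each other. Outlier-marked spots were then dropped and each probe's remaining spots averaged, and none was saturated. A probe was well above background on an array where over 50% of its spots were. Of 24684 probes, 15803 passed the lung filter of 3 arrays, and 12471 had a value on at least 2 arrays of each group and were fitted with lmFit and eBayes of limma 3.58.1, with the group as the only term. For a gene with several probes the brightest over the lung arrays was taken. Where no array of a group measured a probe well above background, its fold is a bound, which replaces the probe's signal on each array by the dimmest signal among probes well above background wherever that is brighter.

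Gene names came from RefSeq transcripts of GRCr8, matched without version, which named 14294 probes. The number of arrays limits the precision. The labels call the tissues matched, so equal numbers were taken as pairs, and the deviations from the group means of samples with the same number correlated at 0.14, -0.041 and 0.16 over 11359 probes. On simulated data 82% of 200 probes changed 4-fold among 11359 were recovered, with 3 false calls. The simulation drew 3 independent values in each group with the same spread in both. The near-identical arrays do not meet this, so the recovery and the false calls do not carry over to these samples.

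Beside the members, the genes named were those called in each list (at most the 4 largest changes in each direction), those undetected in lung, and the 3 mRNA genes nearest to each member probe well above background on all 6 lung arrays (for Calca the nearest 1 is given). Other values were added where they bear on a member. The values of 1 list gene are not reported here. The members, lists and rules were chosen with earlier results of these data known. Alternatives were another normalization (75th percentile shift, or quantile over 8 arrays), normexp on the median signal with an offset of 50, other filters, the authors' values, outlier spots kept, the methods' t-test and its paired form, the replicate number or slide as a block, each lung array left out, and near-identical arrays counted once.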

Additional observations from a re-analysis of the deposited data

How the results depend on the processing

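Of the 7 marker genes tested in lung, 4 were called, against 2 after normexp correction, 2 by the methods' t-test in paired form after Benjamini-Hochberg adjustment, 1 with the slide as a block and 1 with near-identical arrays counted once, a fit whose lone normal lung is assumed to vary like the tumors. Leaving out 1 lung array gave 1 to 4. Without lung tumor 2 Ncam1 (-0.94) and Syp (-3.92) lost their calls and Uchl1 could not be fitted, and without lung tumor 3 Ncam1 (-0.96) and Syp (-4.82) lost theirs. With the replicate number as a block 4 marker genes, 23 programme genes and 3559 probes were called, and no member's call changed. Of the 46 programme genes 22 were called, against 10 with near-identical arrays counted once and 18 to 22 with 1 array left out. Over all probes 3612 were called, against 2224 after normexp correction, 1754 with near-identical arrays counted once and 3182 to 3736 with 1 array left out. The sign of Chga turned to 0.12 under a 75th percentile shift and 0.21 with the slide as a block, and with 1 lung array left out the value ran from -0.28 to 0.00. In blood 2 of 3 members with signal differed by over 2-fold as measured, both against a signal not well above background, so that their bounds of 1.29-fold and 1.28-fold do not reach 2-fold. This count was 1 with a 75th percentile shift, 0 after normexp correction and 0 of 1 that was well above background on both arrays. The cause of these differences was not tested, and the small number of distinct samples limits every test.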
